A study of Mus musculus with 16 samples.

Results

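The natriuretic peptide system of the mouse heart was described here through 7 genes chosen by symbol. They are the peptide genes Nppa and Nppb, the processing enzyme genes Corin and Furin, and the receptor genes Npr1, Npr2 and Npr3. Where a gene has several probe sets the one of highest mean over the 16 arrays is taken, and each of the 7 had 1 probe set, of 35556 on the array. All 7 passed the filter on dim probe sets, which asked for a mean over 4.37 on the log2 scale.

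Atrial and B-type natriuretic peptides are hormones that heart muscle cells make as larger precursors and release when the wall is stretched. Corin, a membrane protease of cardiomyocytes, cuts the precursor of the atrial peptide, and furin, a convertase of the secretory pathway, cuts that of the B-type peptide. Both peptides act through the guanylyl cyclase receptor encoded by Npr1, which makes cyclic GMP, while Npr2 encodes the cyclase that answers C-type peptide and Npr3 the receptor that clears all of them from the circulation. In the adult heart the atria hold most Nppa message, and both peptide genes are widely used as markers of ventricular overload.

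The study set 4 groups of 4 male C57BL/6 mice side by side, with 1 array per heart. The groups were Zbtb17 conditional knockout (cKO) mice after transverse aortic constriction (TAC, a surgical narrowing of the aorta that loads the left ventricle with pressure), cKO mice after sham surgery, control mice after TAC and control mice after sham surgery. All were 8 to 10 weeks old at surgery and were examined 4 weeks later. The sources used here do not give the Cre driver of the knockout, the genotype of the controls or the part of the heart sampled, so the arrays are called hearts throughout.

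Values are log2 expression values as deposited, on which a difference of 1 is a doubling. Tests are those of limma over all 21333 probe sets that passed the filter, two-sided, with Benjamini-Hochberg adjustment and a threshold of 0.05. Errors of fold changes are standard errors of that fit, and intervals are 95% confidence intervals. The number of arrays limits the precision. Heart muscle genes were strongly expressed on every array, with Myh6 at 12.88 to 13.42 and Tnnt2 at 13.40 to 13.62. The targeted gene Zbtb17 was at 6.47 to 6.52 in cKO TAC, 6.47 to 6.62 in cKO sham, 6.30 to 6.56 in control TAC and 6.19 to 6.50 in control sham hearts. It was not lower in cKO hearts, and the sources used here do not name the deleted part of the gene, so whether the probe set reads it is unknown and the values do not check the genotype labels.

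Certain arrays stood apart in genes that bear on the peptides. Myl7, an atrial myosin light chain gene, was above 6 in 6 arrays, at least 1 in each group (replicates 1 and 2 of cKO TAC, 2 of cKO sham, 1 and 2 of control TAC and 3 of control sham). It was only just over this cut, at 6.07, in replicate 1 of cKO TAC and of control TAC, and at 7.26 to 8.83 in the rest of the 6. Atf3, a stress-induced transcription factor gene, was above 8 in 3 sham arrays (replicate 1 of cKO sham, 3 and 4 of control sham). Values without these arrays are given beside several of the results. The part that atrial tissue or stress at collection had in them was not tested.

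Nppa and Nppb lie next to each other on chromosome 4, on the same strand, with 13516 bases between them in GRCm38.p6. Nppb spans chr4:147985786-147987205 and Nppa chr4:148000722-148002074. Their promoters are shown because these neighbouring genes correlated across hearts, as described further on. The correlation passed its test by Pearson r but not by Spearman rho. Whether the promoters have a part in it was not tested. Each sequence runs from 250 bases before to 50 bases after the start in RefSeq's promoter table (GRCm38.p6), on the plus strand. Capitals mark matches on either strand to 4 short words: GATAA, the core read by GATA factors, AAGTG, the core read by Nkx2-5, CATTCC, read by TEAD factors, and TATAAA, the TATA box.
Nppa, chr4:148000472-148000771: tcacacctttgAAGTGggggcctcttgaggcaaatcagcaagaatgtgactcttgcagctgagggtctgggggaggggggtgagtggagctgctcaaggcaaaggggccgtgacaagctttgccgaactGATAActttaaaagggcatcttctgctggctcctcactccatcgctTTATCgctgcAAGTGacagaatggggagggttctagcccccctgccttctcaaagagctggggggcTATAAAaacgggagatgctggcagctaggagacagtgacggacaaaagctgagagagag
Nppb, chr4:147985650-147985949: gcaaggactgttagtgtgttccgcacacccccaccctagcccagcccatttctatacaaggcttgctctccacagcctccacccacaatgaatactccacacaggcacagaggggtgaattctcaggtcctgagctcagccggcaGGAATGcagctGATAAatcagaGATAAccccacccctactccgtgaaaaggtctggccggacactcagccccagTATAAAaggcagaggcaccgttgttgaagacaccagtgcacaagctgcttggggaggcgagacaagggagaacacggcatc

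Both promoters held GATAA at 2 places and TATAAA at 1. In Nppa the GATAA matches began at positions -121 and -75 from the start, and in Nppb at -94 and -83. The TATA box began at -31 in Nppb and at -9 in Nppa, counted from the start in RefSeq's promoter table. For Nppa the gene span given above begins at that start. For Nppb the span begins upstream of it, so the words marked in Nppb lie inside the gene span. AAGTG occurred at 2 places in Nppa and 0 in Nppb, and CATTCC at 1 place in Nppb and 0 in Nppa. The AP-1 word TGACTCA had no match in either window. Nor did the CArG box read by serum response factor, searched only as CCWWWWWWGG, where W is A or T. Words that differ from it by 1 base were not searched for. The matches do not overlap one another. Of all 32851 promoter windows of this length, 25.4% held GATAA, 46.4% AAGTG, 14.7% CATTCC, 13.6% TATAAA, 5.2% TGACTCA and 1.6% a CArG box. These matches describe the letters and show no binding.

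The peptide genes were spread widely between hearts of 1 group, more so in the TAC groups than in the sham groups. Nppa had log2 values of 12.33, 13.27, 12.41 and 11.48 in cKO TAC hearts and 11.79, 11.89, 12.26 and 11.63 in cKO sham hearts. It had 9.86, 12.24, 11.50 and 12.92 in control TAC hearts, against 11.17, 11.77, 11.99 and 12.11 in control sham hearts. The sham hearts of both genotypes thus lay between 11.17 and 12.26, while the TAC hearts reached both further up and further down: 4 of 8 TAC hearts were above all 8 sham hearts, and 1 was below all of them. The heart at the bottom was control TAC replicate 1, and the heart at the top was cKO TAC replicate 2, which also had the highest Myl7, at 8.83. Between these 2 hearts Nppa differed 10.6-fold.

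By group, Nppa averaged 12.37 ± 0.73 in cKO TAC, 11.89 ± 0.27 in cKO sham, 11.63 ± 1.31 in control TAC and 11.76 ± 0.42 in control sham hearts (SD, n = 4 each). The order of the means is cKO TAC, cKO sham, control sham and control TAC, and no neighbouring pair differed beyond this spread. TAC against sham gave a log2 fold change of 0.48 ± 0.49 in cKO hearts (interval -0.57 to 1.53, adjusted p = 0.888) and -0.13 ± 0.49 in control hearts (interval -1.18 to 0.92, adjusted p = 0.966). In cKO hearts the value was 0.05 without the 6 arrays with Myl7 above 6, and leaving out 1 array at a time gave 0.18 (without cKO TAC replicate 2) to 0.78 (without cKO TAC replicate 4). A doubling lies inside the cKO interval, so a response of that size is not excluded with these 4 mice a group. In control hearts the sign of this value rests on single arrays, since it was 0.46 without control TAC replicate 1 and 0.53 without the 6 arrays with Myl7 above 6.

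cKO hearts had more Nppa than control hearts after TAC by 0.74 ± 0.49 (adjusted p = 0.771), a fold of 1.67, and after sham by 0.13 ± 0.49 (adjusted p = 0.948). Neither passed the test. After TAC the value was 0.15 without control TAC replicate 1, and -0.27 (adjusted p = 0.998) without the 6 arrays with Myl7 above 6, a fit that leaves 2 TAC hearts in each genotype. The atrial list behind Myl7 had 8 measured genes, 7 of them above the filter, and its mean log2 value ranged from 5.65 to 7.22 in cKO TAC, 5.60 to 7.09 in cKO sham, 5.67 to 6.60 in control TAC and 5.69 to 7.04 in control sham hearts. Nppa was at 9.86 to 13.27 in the 6 arrays with Myl7 above 6 and at 11.17 to 12.92 in the other 10, so the highest and the lowest heart were both among the 6. The lowest, control TAC replicate 1, had Myl7 at 6.07, just over the cut.

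Nppb was also spread widely within groups. It had 11.62, 12.06, 11.12 and 10.33 in cKO TAC hearts and 11.85, 11.15, 11.24 and 11.14 in cKO sham hearts. It had 9.94, 11.30, 11.14 and 11.97 in control TAC hearts, against 11.30, 10.56, 11.92 and 11.72 in control sham hearts. All 4 groups overlapped, with 2 of 8 TAC hearts above every sham heart and 2 below every sham heart. The highest and lowest hearts were the same as for Nppa, and they differed 4.35-fold.

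The Nppb means were 11.28 ± 0.74 in cKO TAC, 11.35 ± 0.34 in cKO sham, 11.09 ± 0.85 in control TAC and 11.38 ± 0.60 in control sham hearts (SD, n = 4 each). TAC against sham gave -0.06 ± 0.41 in cKO hearts (interval -0.94 to 0.81, adjusted p = 0.988) and -0.29 ± 0.41 in control hearts (interval -1.16 to 0.59, adjusted p = 0.872). The 3 sham hearts with high Atf3 also had the 3 highest sham values of Nppb (11.85, 11.92 and 11.72), and with these hearts left out the fold changes were 0.11 in cKO and 0.16 in control hearts. Leaving out the 6 arrays with Myl7 above 6 moved the cKO value further and the other way, to -0.69 (limma adjusted p = 1), and gave 0.36 in control hearts. The immediate early and stress list that contains Atf3 had a mean log2 value of 6.28 to 6.48 in cKO TAC, 6.34 to 7.02 in cKO sham, 6.44 to 6.84 in control TAC and 6.41 to 7.24 in control sham hearts, over 10 of 10 measured genes. cKO against control gave 0.20 ± 0.41 after TAC (adjusted p = 0.944) and -0.03 ± 0.41 after sham (adjusted p = 0.990). Without the 6 arrays with Myl7 above 6 these were -0.83 (adjusted p = 0.998) and 0.22.

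**Figure D1:**
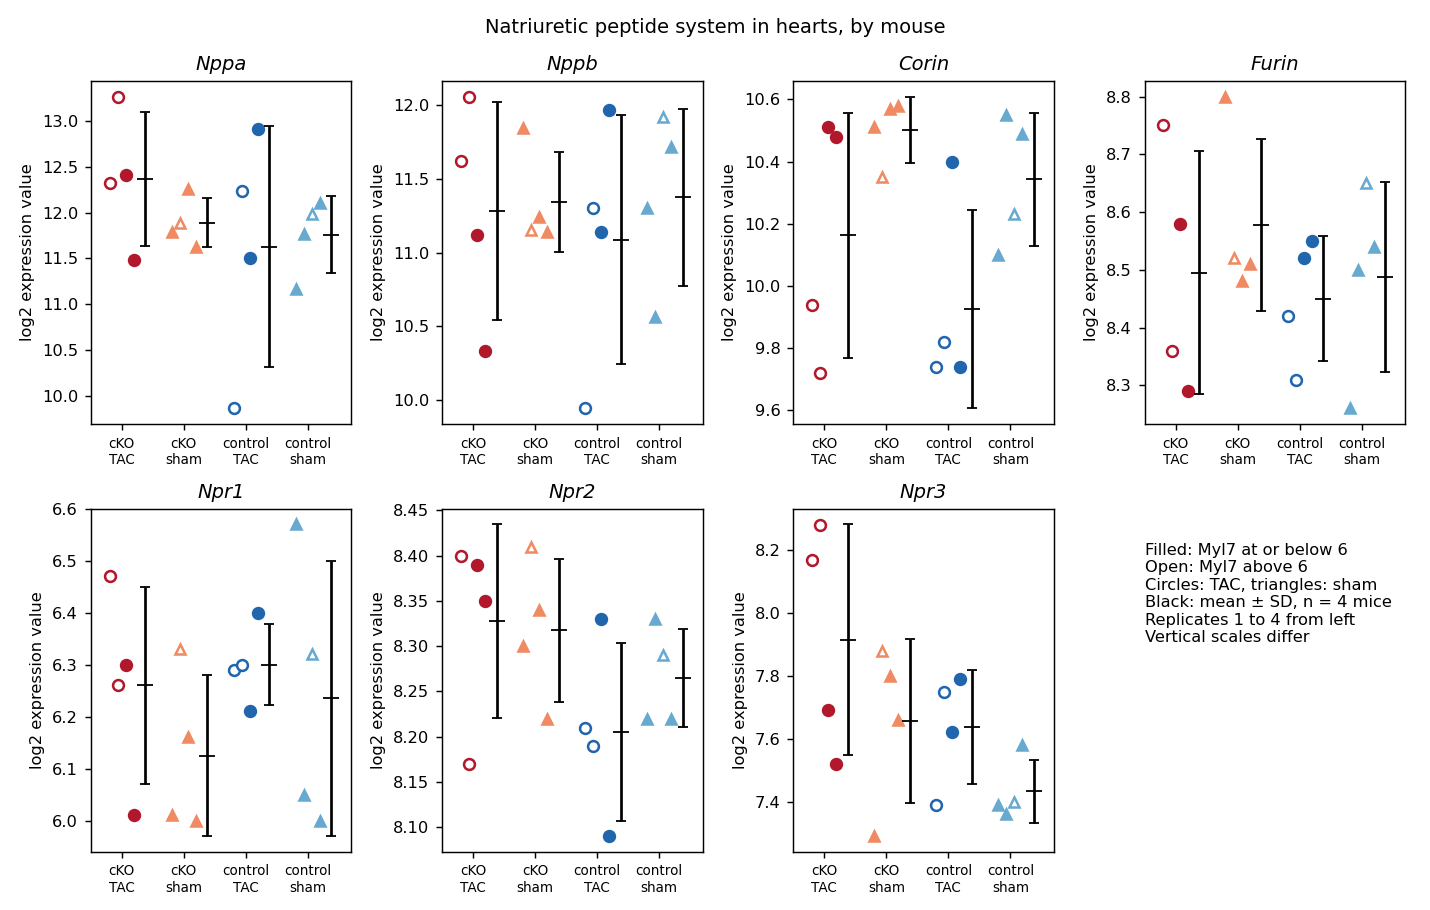
Log2 expression value of each of the 7 genes (vertical axes, which differ in scale) in every heart of the 4 groups, with the group mean and SD in black; open symbols are arrays with Myl7 above 6. Nppa in TAC hearts spreads from 9.86 to 13.27 around the sham hearts, and Corin separates into TAC hearts at 9.72 to 9.94 and TAC hearts at 10.40 to 10.51.

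Corin was the gene with the smallest p for TAC. It had 9.94, 9.72, 10.51 and 10.48 in cKO TAC hearts and 10.51, 10.35, 10.57 and 10.58 in cKO sham hearts. It had 9.74, 9.82, 10.40 and 9.74 in control TAC hearts, against 10.10, 10.55, 10.23 and 10.49 in control sham hearts. In 5 of 8 TAC hearts Corin was below all 8 sham hearts, and the other 3 TAC hearts lay inside the sham range. Of those 5 hearts, 4 had Myl7 above 6, the exception being control TAC replicate 4.

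Averaged over genotype, Corin was lower after TAC, at a log2 fold change of -0.38 ± 0.13 (interval -0.65 to -0.11), a ratio of 0.769. This had an unadjusted p of 0.00874 and an adjusted p of 0.275, so it did not pass. It was -0.34 ± 0.18 in cKO hearts (adjusted p = 0.742) and -0.42 ± 0.18 in control hearts (adjusted p = 0.569), with an interaction of 0.08 ± 0.25. Without the 6 arrays with Myl7 above 6 it was -0.06 in cKO hearts and -0.31 in control hearts (interaction 0.25 ± 0.26), and without cKO TAC replicate 2 alone the cKO value was -0.19. Leaving out any 1 array kept the averaged value between -0.46 and -0.31, while without the 6 arrays with Myl7 above 6 it was -0.18 (adjusted p = 0.980). Against control, cKO hearts had 0.24 ± 0.18 more Corin after TAC (adjusted p = 0.807) and 0.16 ± 0.18 more after sham (adjusted p = 0.768), and without the same 6 arrays the value after TAC was 0.43 (adjusted p = 0.998). The group means were 10.16 ± 0.39 in cKO TAC, 10.50 ± 0.11 in cKO sham, 9.93 ± 0.32 in control TAC and 10.34 ± 0.21 in control sham hearts (SD, n = 4 each).

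Corin marks cardiomyocytes, and in bulk heart RNA fewer cells of a type cannot be told apart from less RNA per cell. Over 7 cardiomyocyte genes, the mean log2 value was 12.91 to 13.19 in cKO TAC, 13.16 to 13.21 in cKO sham, 13.04 to 13.19 in control TAC and 13.04 to 13.20 in control sham hearts. This mean includes Myl2, which was itself lower in cKO than control hearts averaged over surgery, at -0.42 ± 0.04 (limma adjusted p = 0.000232). Of these 7 genes, 5 were lower after TAC averaged over genotype and 0 passed the test, with a median of -0.06. Ryr2, the calcium release channel gene, was the lowest of the 7, at -0.26 ± 0.11 (adjusted p = 0.372). Next came Myh6, at -0.12 ± 0.08 (adjusted p = 0.549). The 8 fibroblast genes were all higher after TAC, with a median of 0.31, and the 7 macrophage genes likewise, with a median of 0.48, and none passed. The part of cell makeup in the Corin value was not tested.

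Furin, the other processing enzyme gene, differed little between hearts. It had 8.75, 8.36, 8.58 and 8.29 in cKO TAC hearts and 8.80, 8.52, 8.48 and 8.51 in cKO sham hearts. It had 8.42, 8.31, 8.52 and 8.55 in control TAC hearts, against 8.26, 8.50, 8.65 and 8.54 in control sham hearts. Every TAC heart lay inside the range of the sham hearts. TAC against sham averaged over genotype gave -0.06 ± 0.08 (interval -0.23 to 0.11, adjusted p = 0.799), and cKO against control averaged over surgery gave 0.07 ± 0.08 (interval -0.10 to 0.24, adjusted p = 0.715).

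Of the receptors, Npr3, the clearance receptor, had the largest differences. It had 8.17, 8.28, 7.69 and 7.52 in cKO TAC hearts and 7.29, 7.88, 7.80 and 7.66 in cKO sham hearts. It had 7.39, 7.75, 7.62 and 7.79 in control TAC hearts, against 7.39, 7.36, 7.40 and 7.58 in control sham hearts. Replicates 1 and 2 of cKO TAC, the only 2 hearts above 8, were above every other heart, and both had Myl7 above 6. The control sham hearts lay closest together, with a range of 0.22.

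The Npr3 means run in the order 7.92 ± 0.37 in cKO TAC, 7.66 ± 0.26 in cKO sham, 7.64 ± 0.18 in control TAC and 7.43 ± 0.10 in control sham hearts (SD, n = 4 each). cKO against control averaged over surgery gave 0.25 ± 0.11 (interval 0.01 to 0.49, fold 1.19), with an unadjusted p of 0.0439 and an adjusted p of 0.320. TAC against sham averaged over genotype gave 0.23 ± 0.11 (interval -0.01 to 0.47, adjusted p = 0.433). Neither passed the test. Without the 6 arrays with Myl7 above 6 the genotype value was 0.02 (adjusted p = 0.974) and the TAC value 0.14 (adjusted p = 0.980). Without the 3 arrays with Atf3 above 8 the genotype value was 0.34 (adjusted p = 0.205).

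Npr3 is made by endocardial and other endothelial cells, and a list of endothelial genes was read beside it. The 9 genes of the list were all lower in cKO hearts averaged over surgery, with a median of -0.21 against -0.0038 over all probe sets, and none passed. The mean log2 value of the list was 8.77 to 9.19 in cKO TAC, 8.80 to 8.94 in cKO sham, 9.08 to 9.39 in control TAC and 8.91 to 9.17 in control sham hearts. After TAC the 9 genes were all higher, with a median of 0.16 against 0.01 over all probe sets. The part of cell makeup in the Npr3 values was not tested.

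Npr1, the cyclase receptor of both cardiac peptides, had 6.47, 6.26, 6.30 and 6.01 in cKO TAC hearts and 6.01, 6.33, 6.16 and 6.00 in cKO sham hearts. It had 6.29, 6.30, 6.21 and 6.40 in control TAC hearts, against 6.57, 6.05, 6.32 and 6.00 in control sham hearts. Every TAC heart was inside the range of the sham hearts. TAC against sham averaged over genotype gave 0.10 ± 0.09 (interval -0.09 to 0.29, adjusted p = 0.684), and cKO against control averaged over surgery gave -0.08 ± 0.09 (interval -0.26 to 0.11, adjusted p = 0.720).

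Npr2, the receptor of C-type peptide, was the steadiest of the 7 genes. It had 8.40, 8.17, 8.39 and 8.35 in cKO TAC hearts and 8.30, 8.41, 8.34 and 8.22 in cKO sham hearts. It had 8.21, 8.19, 8.33 and 8.09 in control TAC hearts, against 8.22, 8.33, 8.29 and 8.22 in control sham hearts. All 16 hearts lay between 8.09 and 8.41, a 1.25-fold range, and the groups overlapped. Even so, 4 of 8 TAC hearts were below every sham heart, and 5 of 8 cKO hearts were above every control heart. TAC against sham averaged over genotype gave -0.03 ± 0.05 (interval -0.13 to 0.08, adjusted p = 0.884). cKO against control gave 0.12 ± 0.07 after TAC (adjusted p = 0.738) and 0.05 ± 0.07 after sham (adjusted p = 0.822). Averaged over surgery it was 0.09 ± 0.05 (interval -0.02 to 0.20, adjusted p = 0.442), which did not pass.

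Set side by side, 0 of the 7 genes passed the limma test in any of the 7 comparisons. The share of all 21333 probe sets that passed was 0% for TAC against sham in cKO hearts, in control hearts and averaged over genotype. It was 0.00469% for cKO against control after TAC, 0.0234% after sham and 0.0188% averaged over surgery, and 0% for the interaction. At an unadjusted p under 0.05 the count was 1 of 7 for TAC against sham in control hearts and averaged over genotype, which was Corin both times, where 8.32% and 12% of all probe sets reached it. It was 1 of 7, Npr3, for cKO against control averaged over surgery, where 14.9% did. It was 0 of 7 for TAC against sham in cKO hearts (6.78% of all probe sets), cKO against control after TAC (7.58%) and after sham (10.7%), and the interaction (3.7%). 1 gene in 7 is close to the share of all probe sets, so these counts are not a result about the 7 genes. The comparisons within a genotype or a surgery share arrays with one another, so their values are not independent.

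**Figure D2:**
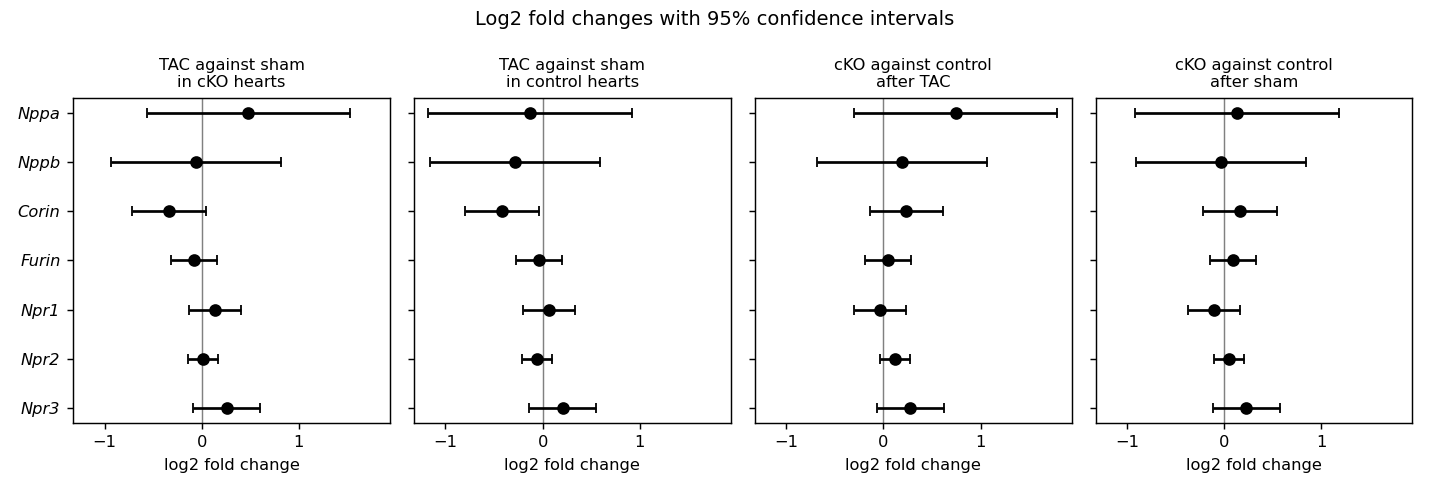
Log2 fold change of each gene (horizontal axis, TAC over sham or cKO over control as titled) with its 95% confidence interval in the 4 comparisons of 4 hearts against 4. The intervals of Nppa and Nppb are the widest, reaching from -0.30 to 1.79 for Nppa in cKO against control after TAC, and those of Npr2 the narrowest.

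The difference in TAC response between genotypes was tested directly as an interaction. It was 0.61 ± 0.70 for Nppa (interval -0.87 to 2.09), 0.23 ± 0.58 for Nppb, 0.08 ± 0.25 for Corin, -0.05 ± 0.16 for Furin, 0.07 ± 0.18 for Npr1, 0.07 ± 0.10 for Npr2 and 0.05 ± 0.23 for Npr3. Each had an adjusted p of 1. Leaving out 1 array at a time moved the Nppa interaction between 0.02 and 1.04, and the lowest value was the one without control TAC replicate 1. Without the 6 arrays with Myl7 above 6 the interaction was -0.48 for Nppa and -1.05 for Nppb. The interval for Npr2 (-0.15 to 0.29) was the narrowest of the 7 and that for Nppa the widest.

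Spread within groups set the 7 genes apart from each other. The SD within groups, pooled over the 4 groups, was 0.79 for Nppa and 0.66 for Nppb, larger than that of 99.4% and 99.0% of tested probe sets. It was 0.28 for Corin, 0.25 for Npr3, 0.18 for Npr1, 0.16 for Furin and 0.09 for Npr2, the last larger than that of only 6.1% of probe sets. For Nppa the SD was 0.73 and 0.27 in cKO TAC and cKO sham hearts and 1.31 and 0.42 in control TAC and control sham hearts. For Corin it was 0.39 and 0.11 in cKO TAC and cKO sham hearts and 0.32 and 0.21 in control TAC and control sham hearts. The difference in SD between surgeries was not tested.

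Whether the genes vary together from heart to heart was examined over the 16 mice, in 21 pairs, by permutation tests with 100000 resamples. Over all 16 hearts, 1 pair passed by Pearson correlation after Benjamini-Hochberg adjustment over the 21 pairs and 0 by Spearman correlation, and 2 passed by Pearson correlation with group means taken out. The first was Nppa with Nppb, at Pearson r = 0.76 (permutation p = 0.00075, adjusted p = 0.0158). Spearman rho was 0.62 (permutation p = 0.0125, adjusted p = 0.0876). With the mean of each group taken out, r was 0.81 (permutation p = 0.00388, adjusted p = 0.0407). Without the 2 hearts farthest from the median of Nppa, control TAC replicate 1 and cKO TAC replicate 2, r was 0.49 (permutation adjusted p = 0.243). Leaving out the extremes of Nppa narrows its range, which itself lowers r. The drop therefore does not settle how far the relation rests on those 2 hearts. Without control TAC replicate 1 alone r was 0.59 (permutation adjusted p = 0.101), and without the 6 arrays with Myl7 above 6 it was 0.49 (permutation adjusted p = 0.515).

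Nppa and Npr3 came next in these pairs, with r = 0.66 (permutation p = 0.00532, adjusted p = 0.0515) and rho = 0.72 (permutation p = 0.0024, adjusted p = 0.0504). With group means taken out this pair passed, at r = 0.65 (permutation p = 0.00188, adjusted p = 0.0395), and without the 2 hearts farthest from the median of Nppa it was 0.55. Corin and Npr1 ran in opposite directions, with r = -0.65 (permutation p = 0.00735, adjusted p = 0.0515) and rho = -0.64 (permutation p = 0.00928, adjusted p = 0.0876), which did not pass. Without the 2 hearts farthest from the median of Corin r was -0.74. Npr1 was at 6.26 to 6.47 and Corin at 9.72 to 10.35 in the 6 arrays with Myl7 above 6, and Npr1 at 6.00 to 6.57 and Corin at 9.74 to 10.58 in the other 10. Nppa and Corin, the peptide gene and the gene of its protease, had r = -0.10 (permutation p = 0.719, adjusted p = 0.859), and Nppb and Furin had r = 0.42 (permutation p = 0.108, adjusted p = 0.391).

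**Figure D3:**
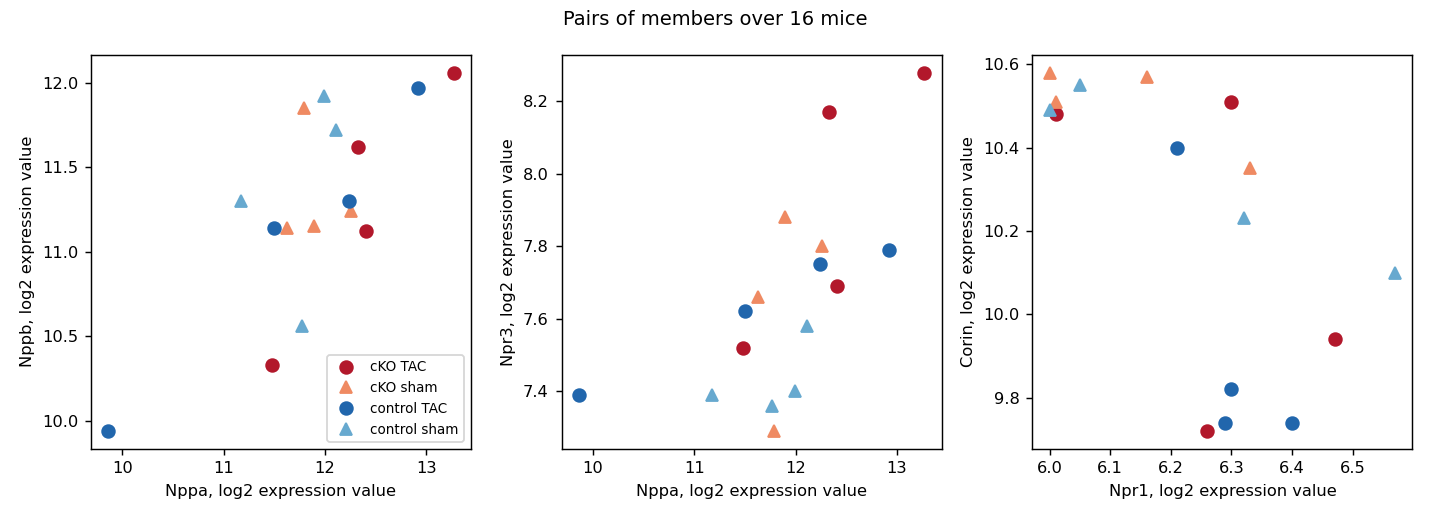
Log2 expression values of 3 pairs of genes in 16 hearts, coloured by group, 1 point per mouse. Control TAC replicate 1 lies alone at the lower left of the plot of Nppb against Nppa, at 9.86 and 9.94, and 2 cKO TAC hearts lie alone above 8 in Npr3.

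The genes whose log2 values were most like each member over the 16 arrays were found among 15021 other tested probe sets with 1 gene symbol, by Pearson correlation, as a description with no test. For Nppa they were Itga9, an integrin subunit gene (0.88), Mical2, an actin-oxidising enzyme gene (0.86), and Vps35l (0.83). For Nppb they were Cnn2, a calponin gene (0.88), Ms4a4a (0.84) and Acot9 (0.83). For Corin they were Nebl, which encodes the Z-disc protein nebulette (0.96), Mylk3, the cardiac myosin light chain kinase gene (0.96), and Dsg2, a desmosomal cadherin gene (0.95). For Furin they were Utp4, Gna13 and Txnrd1 (0.83, 0.83 and 0.82). For Npr1 they were Kif13b, Bicc1 and Spaar (0.86, 0.84 and 0.82), for Npr2 Jph1, Miga1 and Kif1c (0.86, 0.85 and 0.82), and for Npr3 Abcg2, Nlrc3 and Galc (0.94, 0.91 and 0.89). The largest of many such values is high by selection.

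Other genes that make, cut or degrade these peptides were measured in 10 of 10 cases, and 8 were tested. Averaged over genotype, 3 were higher and 5 lower after TAC and 0 passed, with a median of -0.02 against 0.01 over all probe sets. The split was 5 higher and 3 lower without the 6 arrays with Myl7 above 6. Pcsk6, the convertase that activates corin, was at 0.24 ± 0.10 (adjusted p = 0.342), Pcsk5, a related convertase, at 0.15 ± 0.07 (adjusted p = 0.407), and Pam, a peptide-amidating enzyme abundant in atrial granules, at 0.15 ± 0.12 (adjusted p = 0.639). Between genotypes, averaged over surgery, 4 were higher and 4 lower in cKO hearts and 0 passed. Pam was at 0.29 ± 0.12 (adjusted p = 0.271), Pcsk5 at -0.17 ± 0.07 (adjusted p = 0.270) and Ide, the insulin-degrading enzyme that also cuts natriuretic peptides, at 0.19 ± 0.09 (adjusted p = 0.349). Nppc, the C-type peptide gene, was at -0.01 ± 0.07 for TAC and -0.05 ± 0.07 for cKO, and Mme, which encodes neprilysin, at -0.05 ± 0.10 and 0.17 ± 0.10.

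Of 18 genes of cyclic GMP signalling, 16 were tested, and after TAC 10 were higher and 6 lower, with 0 past the threshold and a median of 0.04. The smallest p belonged to Pde1c, a phosphodiesterase gene, at -0.35 ± 0.11 (adjusted p = 0.265), Gucy1b1, the beta subunit of soluble guanylyl cyclase, at 0.26 ± 0.09 (adjusted p = 0.274), and Pln, which encodes the calcium pump regulator phospholamban, at -0.08 ± 0.03 (adjusted p = 0.316). Without the 6 arrays with Myl7 above 6, the split after TAC was 8 higher and 8 lower. Between genotypes, over all arrays, 8 were higher and 8 lower, again with 0 past the threshold. Rgs4, a brake on G protein signalling, was at -0.27 ± 0.09 (adjusted p = 0.197), Pde2a, a phosphodiesterase that cyclic GMP stimulates, at -0.18 ± 0.07 (adjusted p = 0.270), and Prkg1, the cyclic GMP-dependent kinase gene, at 0.20 ± 0.10 (adjusted p = 0.359).

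Of 15 genes of transcription factors that act on cardiac promoters, 8 were higher and 7 lower after TAC and 0 passed. Nkx2-5 was at 0.18 ± 0.05 (adjusted p = 0.233), Myocd at -0.27 ± 0.10 (adjusted p = 0.311) and Mef2a at -0.14 ± 0.06 (adjusted p = 0.369), while Gata4 was at 0.04 ± 0.07 (adjusted p = 0.873). Without the 6 arrays with Myl7 above 6, 11 were higher and 4 lower after TAC and 0 passed. In cKO against control hearts, over all arrays, 11 were higher and 4 lower and 0 passed. Rest, a repressor of Nppa and Nppb in other studies of heart cells, was at 0.19 ± 0.07 (adjusted p = 0.230), Nfatc4 at -0.12 ± 0.06 (adjusted p = 0.394) and Tbx20 at 0.14 ± 0.08 (adjusted p = 0.416).

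The other markers of overload were higher after TAC in 8 of 9 genes, all but Ccn2, with a median of 0.34 against 0.01 over all probe sets, and 0 passed. Postn, a matrix protein gene, was at 0.99 ± 0.45 (adjusted p = 0.397), Acta1, the skeletal actin gene, at 0.87 ± 0.41 (adjusted p = 0.414) and Col3a1 at 0.33 ± 0.14 (adjusted p = 0.376). In cKO against control hearts 9 of 9 were higher with a median of 0.16, led by Fhl1, a LIM protein gene, at 0.52 ± 0.15 (adjusted p = 0.172), Acta1 at 0.72 ± 0.41 (adjusted p = 0.420) and Myh7 at 0.38 ± 0.37 (adjusted p = 0.658), and 0 passed. The mean log2 value of the list was highest in an array with Myl7 above 6 in every group, at 10.44 in cKO TAC (replicate 2), 9.33 in cKO sham (replicate 2), 9.54 in control TAC (replicate 2) and 9.37 in control sham hearts (replicate 3), while control TAC replicate 1, also with Myl7 above 6, was the lowest of its group at 8.49. With the 6 arrays left out, 3 of 9 genes were higher in cKO hearts, with a median of -0.0042, and 7 of 9 were higher after TAC, with a median of 0.26. Acta1 had 12.65, 12.57, 10.79 and 10.75 in cKO TAC hearts and 9.31, 11.60, 9.88 and 11.90 in control TAC hearts. The control TAC heart with the lowest Acta1, replicate 1, was the heart with the lowest Nppa and Nppb.

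**Figure D4:**
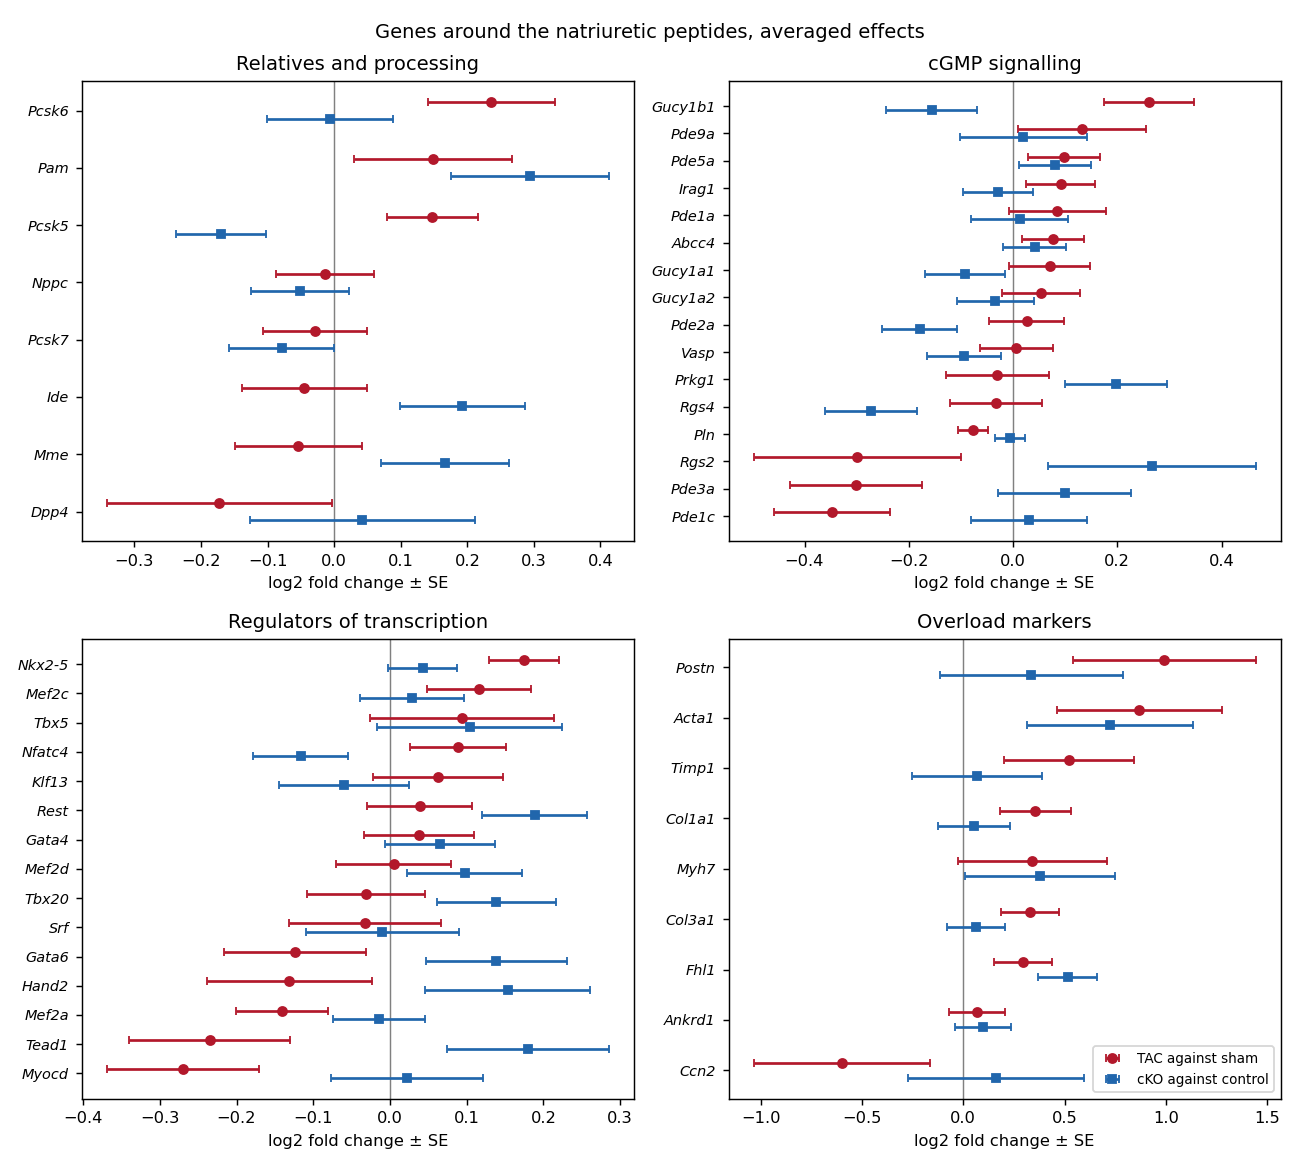
Log2 fold changes with standard errors (horizontal axes, which differ in scale) of tested genes in the 4 lists around the peptides, for TAC against sham averaged over genotype in red and cKO against control averaged over surgery in blue. No gene shown passed the test, and the largest values are those of Postn (0.99) and Acta1 (0.87) after TAC.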

How the data were processed

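RNA from 16 mouse hearts was labelled with biotin and hybridised to Affymetrix arrays, per the labels' protocols. The authors deposited log2 values for 35556 probe sets. The submitters' processing notes name MAS5 with no version, and the log2 scale was read from the values. Array medians lay between 4.85 and 4.975. The sources used here do not say how arrays were scaled to each other, and any such scaling removes a shift shared by all genes.

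Probe sets were named from the platform annotation, updated by Entrez ID to RefSeq GRCm38.p6, where 21789 had 1 symbol, 1621 several and 12146 none listed. The 21333 probe sets above the 40th percentile of mean value (4.37) were tested with limma 3.58.1 in R 4.3.3: 4 group means, 12 residual degrees of freedom, a mean-variance trend and Benjamini-Hochberg adjustment. No 2 arrays were identical, and no batch is given. The limma test was tried on simulated data in which residuals were shuffled for each probe set separately. Such data do not hold differences that many genes of an array share. The correlation tests were tried on made-up values.

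The text names the 7 genes, Zbtb17, Myl7, Atf3, the 3 genes of smallest p in each of 4 lists for both averaged comparisons, and the 3 genes most like each of the 7. Myh6, Tnnt2, Myl2, Ryr2, Nppc, Mme, Gata4, Ccn2 and the Acta1 values by heart were named outside this rule, after their values were seen. The genes and lists were chosen with earlier results of these data known. Irag1 was read under its older symbol Mrvi1. Each fit was repeated with quantile-normalized or median-centred arrays, with every probe set or only those above the 60th percentile, without the trend, within the 2 groups compared, with weighted arrays, with replicate number blocked, with probe sets averaged by symbol, and with arrays removed one at a time. Removing arrays by Myl7 (7 genes and lists) or Atf3 (7 genes) was added after seeing the data.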

Additional observations from a re-analysis of the deposited data

Results flagged for a closer look

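In 28 groups of 4 hearts (7 genes in 4 groups), 3 held a heart whose gap to the nearest other heart was a larger part of the group's range than Dixon's 95% limit for 4 values. Chance flags about 1 in 20 groups. Nppb in cKO sham replicate 1 was at 11.85, a gap of 0.61 in a range of 0.71. Furin in the same heart was at 8.80, a gap of 0.28 in a range of 0.32, and this heart also had Atf3 at 9.58. Corin in control TAC replicate 3 was at 10.40, a gap of 0.58 above the other 3 hearts in a range of 0.66.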

How the results depend on the processing

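None of the 49 results of the 7 genes passed an adjusted p of 0.05 in limma under any of 1078 alternative values, the smallest adjusted p being 0.174, and 72 of these values had the opposite sign to the main one. The filters, the fit without the trend, the fit of only the groups compared, the replicate block and averaging by symbol keep each fold change. Those settings could alter only its p, not its sign. With the replicate number as a block no call changed (Corin for TAC averaged over genotype, adjusted p = 0.291, Npr3 0.459 for TAC and 0.343 for cKO, both averaged). The numbers do not pair the mice: same-numbered arrays had correlations of -0.205 to 0.193, 6 of 24 above 0.1, and 3 of 16 arrays correlated best with their own number. With median centring, Npr2 for TAC in cKO hearts was -0.0075 and Nppb for cKO after sham 0.029. With quantile normalization, Npr2 for cKO after sham was -0.0070 and the Furin interaction 0.0018. With array weights, Nppb for cKO averaged was -0.12 and the interactions of Furin and Npr3 were 0.016 and -0.045.

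The fold changes and interactions below are those that changed sign. Without the 6 arrays with Myl7 above 6, TAC in control hearts gave 0.53 for Nppa, 0.36 for Nppb and 0.10 for Furin. cKO after TAC gave -0.27 for Nppa, -0.83 for Nppb, -0.10 for Furin and -0.10 for Npr3. Nppb for cKO after sham was 0.22, Npr2 for TAC averaged 0.018, and cKO averaged gave -0.028 for Nppa and -0.31 for Nppb. The interactions were -0.48 for Nppa, -1.05 for Nppb and -0.24 for Npr3. Without the 3 arrays with Atf3 above 8, TAC in control hearts gave 0.16 for Nppa, 0.16 for Nppb, 0.07 for Furin and -0.01 for Npr1. Nppb was 0.11 for TAC in cKO hearts, 0.13 for TAC averaged and 0.25 for cKO after sham, and Furin 0.031 for TAC averaged. The interactions were -0.052 for Nppb and -0.13 for Npr3. The correlation of Nppa with Nppb kept its sign but was weaker. It was 0.6215 by Spearman, 0.4889 without the 2 farthest hearts and 0.4934 without the 6 arrays, none past its adjusted threshold. The cause of these changes was not tested.

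Leaving out 1 array at a time turned the sign of these results, given as lowest to highest. TAC in control hearts ran from -0.56 to 0.46 for Nppa, -0.58 to 0.10 (0.095) for Nppb, -0.11 to 0.017 for Furin and -0.013 to 0.18 for Npr1. TAC in cKO hearts ran from -0.32 to 0.26 (0.255) for Nppb and -0.023 to 0.063 for Npr2. cKO after sham ran from -0.064 to 0.25 for Nppa, -0.30 to 0.15 for Nppb and -0.19 to 0.0017 for Npr1. cKO after TAC ran from -0.19 to 0.51 for Nppb, -0.04 to 0.11 for Furin and -0.11 to 0.043 for Npr1. TAC averaged ran from -0.04 to 0.47 for Nppa, -0.32 to 0.016 for Nppb and -0.046 to 0.00125 for Npr2, and cKO averaged from -0.11 to 0.24 for Nppb. The Nppa interaction kept its sign but ran from 0.02 to 1.04, and Nppa for cKO after TAC from 0.15 to 1.17. The interactions that changed sign ran from -0.16 to 0.54 for Nppb, -0.038 to 0.24 for Corin, -0.13 to 0.031 for Furin, -0.042 to 0.15 for Npr1 and -0.07 to 0.18 for Npr3. The correlation of Nppa with Nppb ran from 0.5922 to 0.7947. Fitting only the groups compared gives the averaged and interaction results unchanged by construction and was not listed for them.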
